A study of Homo sapiens with 12 samples.

Results

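The class I antigen presentation genes followed here were HLA-B, HLA-C, HLA-E, HLA-F, B2M, TAP1, TAP2, TAPBP and PSMB9, taken as every row of the non-normalized intensity table that carried one of these 9 symbols. They are 9 of the 31425 named genes with values and were represented by 16 probes of the 47321 with values, and 15 of the 16 were tested among 21476 probes detected on at least 3 arrays. The data came from 12 Illumina BeadChip arrays of EA.hy926, a hybrid line made from human umbilical vein endothelial cells and a lung carcinoma line, which per the labels does not express estrogen receptor alpha. Control cells (Ctrl_EC) were stably transfected with the pCDNA 3.1 backbone and receptor cells (ERa_EC) with pCMV3-ERalpha. Both were selected in puromycin, picked as single colonies and kept in puromycin, and the labels do not say whether a replicate number stands for a colony or for a culture of pooled colonies. All cells spent 24 h in serum-free medium before 16 h with ethanol vehicle or 10 nM 17-beta-estradiol. This gave 4 groups of 3 arrays, called control cells under vehicle, control cells under estradiol, receptor cells under vehicle and receptor cells under estradiol. Receptor cells of replicate number 1, 2 or 3 are called receptor culture 1, 2 or 3, each with 1 vehicle and 1 estradiol array.

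Class I molecules display peptides from inside the cell to cytotoxic T cells and natural killer cells. Proteasomes, including the interferon-inducible form that contains PSMB9, cut proteins into peptides, the TAP1 and TAP2 transporter carries them into the endoplasmic reticulum, and TAPBP (tapasin) holds the transporter next to an empty heavy chain so that it can be loaded. Heavy chains such as those of HLA-B, HLA-C, HLA-E and HLA-F reach the cell surface bound to B2M, their shared light chain. Endothelial cells carry class I molecules at rest, and interferons raise the whole set through STAT and IRF proteins that bind elements in the promoters, together with NF-kB and the coactivator NLRC5.

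Promoters of the members whose levels differed most between cultures, and of TAP1, are shown because they hold the elements through which interferons are known to act. They were taken from RefSeq (GRCh38.p14), which held 9 promoter entries for 8 of the 9 members and none for HLA-E, and each runs 5′ to 3′ from 250 bases before to 50 bases after the annotated start. Capitals mark every match, on either strand, to the interferon response element core, which is GAAA repeated after any 2 bases, or to its shorter form GAANNGAAA, and overlapping matches run together.
HLA-B (chr6:31357130-31357429, minus strand): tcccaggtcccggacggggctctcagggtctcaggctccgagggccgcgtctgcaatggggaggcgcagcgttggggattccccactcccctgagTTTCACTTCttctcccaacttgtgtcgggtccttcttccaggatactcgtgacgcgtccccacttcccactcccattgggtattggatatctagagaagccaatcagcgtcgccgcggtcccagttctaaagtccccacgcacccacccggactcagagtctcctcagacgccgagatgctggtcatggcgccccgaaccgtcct
HLA-C (chr6:31272043-31272342, minus strand): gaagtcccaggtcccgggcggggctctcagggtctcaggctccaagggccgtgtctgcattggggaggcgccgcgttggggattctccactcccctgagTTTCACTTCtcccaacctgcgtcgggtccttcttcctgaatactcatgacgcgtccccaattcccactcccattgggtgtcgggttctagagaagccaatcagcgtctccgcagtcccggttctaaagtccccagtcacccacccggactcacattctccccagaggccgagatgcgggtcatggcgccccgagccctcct
HLA-F (chr6:29723184-29723483, plus strand): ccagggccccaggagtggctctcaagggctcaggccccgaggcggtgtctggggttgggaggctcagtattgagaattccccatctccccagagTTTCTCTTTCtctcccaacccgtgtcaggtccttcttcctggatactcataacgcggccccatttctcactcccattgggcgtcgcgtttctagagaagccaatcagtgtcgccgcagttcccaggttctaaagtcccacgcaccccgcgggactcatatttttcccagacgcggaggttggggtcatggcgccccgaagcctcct
B2M (chr15:44711267-44711566, plus strand): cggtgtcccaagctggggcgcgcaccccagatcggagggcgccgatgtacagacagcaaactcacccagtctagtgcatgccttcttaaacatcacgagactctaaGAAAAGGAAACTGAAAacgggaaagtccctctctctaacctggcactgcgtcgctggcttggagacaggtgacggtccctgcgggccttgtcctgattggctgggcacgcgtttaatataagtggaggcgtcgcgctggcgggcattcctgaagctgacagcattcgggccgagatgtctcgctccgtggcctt
TAP1 (chr6:32853655-32853954, minus strand): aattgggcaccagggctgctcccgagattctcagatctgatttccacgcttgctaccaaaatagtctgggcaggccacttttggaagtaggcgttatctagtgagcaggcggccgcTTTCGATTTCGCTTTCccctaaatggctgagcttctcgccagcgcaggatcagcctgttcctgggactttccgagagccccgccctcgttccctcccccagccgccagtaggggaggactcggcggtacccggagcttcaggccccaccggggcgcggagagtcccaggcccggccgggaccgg

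HLA-B and HLA-C held the same 9-base match, with its first base at -155 and -151 from the start, and HLA-F held the longer core at -156. B2M held 2 overlapping long cores at -144 and -138, and TAP1 2 at -134 and -128. Of the members not printed, TAP2 held a long core at -58 overlapping a shorter one at -63, TAPBP held long cores at -20 and -14, and the PSMB9 window and the second TAP1 entry held none. The long core was present in 3.57% and the shorter in 7.66% of 35116 promoters of the same length. NF-kB type letters (GGG, any 2 bases, TT, any base and CC), searched on both strands and present in 5.68% of promoters, occurred in HLA-B (-177), B2M (-125), TAP1 (-72) and TAPBP (-56). They overlapped no interferon core in these windows. TGACGC, the core of the X2 box bound with NLRC5 complexes, was present in 9.14% of promoters and in those of HLA-B (-106), HLA-C (-105) and TAP2 (-35). The full estrogen response element, GGTCA and TGACC with any 3 bases between them, was present in 0.057% of promoters and in 0 of the 9 entries. TAP1 and PSMB9 are transcribed away from each other from starts 488 bases apart, and their windows overlap by 13 bases. A match describes letters only, and the absence of one concerns this window alone.

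Between 18441 and 19747 probes were detected per array (deposited detection p-value under 0.05), with median raw intensities of 104.5 to 120.7. Pairs of arrays correlated at 0.975 to 0.995, and 0 pairs held identical values. The ESR1 probe was detected on 0 of the 12 arrays, with levels of 4.36 to 4.70 in receptor cells and 4.44 to 4.67 in control cells. Whether this probe lies inside the transfected sequence is not given in the sources used here, so it does not check the labels. Endothelial markers PECAM1, CDH5, VWF, TEK, TIE1, EGFL7 and ESAM were detected on 12 of 12 arrays, whereas CLDN5 was detected on 0. The leukocyte markers PTPRC, CD3E and FCER1G were detected on 0 arrays, whereas LYZ was detected on 12. Within receptor cells, the vehicle and estradiol arrays of 1 number deviated together from their group means (correlations of 0.73, 0.36 and 0.65 over all tested probes for numbers 1, 2 and 3), whereas in control cells the correlations were 0.08, 0.04 and 0.10.

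The heavy-chain gene HLA-B had the largest estimated difference between receptor and control cells among the members. Its level, the background-corrected and quantile-normalized log2 intensity, was 6.93, 6.44 and 6.78 in control cells under vehicle and 6.57, 6.99 and 6.79 with estradiol. In receptor cells it was 8.66, 7.06 and 7.48 under vehicle and 8.54, 7.30 and 7.39 with estradiol, in the order of replicates 1, 2 and 3. All 6 receptor arrays lay above all 6 control arrays, and both arrays of culture 1 lay more than 1 log2 unit above the other 4 receptor arrays. The receptor over control difference under vehicle was 1.02 ± 0.37 (log2, SE, n = 3 and 3 arrays), a 2.03-fold difference that did not pass the threshold (limma, adjusted p = 0.117). Under estradiol it was 0.96 ± 0.37 (adjusted p = 0.158).

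HLA-F, a heavy chain that can also reach the surface without peptide, had a similar order on its probe ILMN_2186806. Control cells read 6.65, 6.68 and 6.82 under vehicle and 6.34, 6.57 and 6.68 with estradiol. Receptor cells read 8.19, 7.0 and 6.95 under vehicle and 7.86, 7.20 and 7.02 with estradiol, so that the receptor arrays again lay above all control arrays and culture 1 above the rest. The differences were 0.66 ± 0.29 under vehicle (limma, adjusted p = 0.185) and 0.83 ± 0.29 under estradiol (adjusted p = 0.117). The second HLA-F probe, ILMN_1762861, was not detected on 1 of the 3 arrays of control cells under vehicle. It read 5.54, 4.79 and 4.94 there, 5.25, 5.09 and 5.21 in control cells with estradiol, 5.93, 5.80 and 5.08 in receptor cells under vehicle and 6.04, 5.43 and 5.50 with estradiol, and its groups overlapped under vehicle only.

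HLA-C, the classical heavy chain best known as a ligand of natural killer cell receptors, was measured by ILMN_1721113. It read 6.12, 5.65 and 6.23 in control cells under vehicle, 6.36, 5.93 and 6.06 with estradiol, 6.92, 6.10 and 5.86 in receptor cells under vehicle and 6.92, 5.86 and 6.41 with estradiol. Receptor cultures 2 and 3 lay within or near the control range and culture 1 above it. Its other probe, ILMN_2150787, was detected on 0 of the 12 arrays and was not tested. HLA-E, which presents leader peptides of other class I chains to natural killer cells, read 11.70, 11.78 and 11.65 in control cells under vehicle, 11.61, 11.84 and 11.78 with estradiol, 11.79, 11.40 and 11.32 in receptor cells under vehicle and 11.96, 11.48 and 11.72 with estradiol. The HLA-E groups overlapped in both receptor over control comparisons (-0.20 ± 0.15 under vehicle and -0.02 ± 0.15 under estradiol). HLA heavy-chain genes and pseudogenes are near-identical in places and the probe sequences were not used here, so a probe's signal may include RNA of a relative.

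B2M, the light chain, differed between receptor cultures in both directions. Probe ILMN_1725427 read 12.35, 12.30 and 12.46 in control cells under vehicle and 12.35, 12.26 and 12.22 with estradiol, against 13.03, 12.52 and 12.01 in receptor cells under vehicle and 12.90, 12.41 and 12.02 with estradiol. Probe ILMN_2148459 read 11.37, 11.46 and 11.67, then 11.40, 11.67 and 11.72 in control cells, against 12.36, 11.73 and 11.35, then 12.29, 11.67 and 11.13 in receptor cells. On both probes culture 1 lay above the control arrays, culture 2 within or close to their range and culture 3 below them. The group means differed by 0.15 ± 0.24 and 0.31 ± 0.27 under vehicle, within the spread between replicates.

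The peptide transporter genes had estimates below 0 in receptor cells relative to control cells, none of which passed the threshold. TAP1 read 9.87, 9.98 and 9.89 in control cells under vehicle, 9.79, 9.81 and 9.92 with estradiol, 9.80, 9.34 and 9.56 in receptor cells under vehicle and 9.74, 9.20 and 9.72 with estradiol. Its receptor and control arrays did not overlap under either treatment, with differences of -0.35 ± 0.16 (limma, adjusted p = 0.198) and -0.29 ± 0.16 (adjusted p = 0.317). TAP2 is covered by probes for 2 transcript variants, which disagreed in part. The variant 1 probe ILMN_1777565 read 7.09, 7.23 and 6.78 in control cells and 6.72, 6.77 and 6.70 in receptor cells under vehicle, without overlap. With estradiol it read 6.82, 6.99 and 7.0 and 6.48, 6.83 and 6.40, which overlapped. The variant 2 probe ILMN_1759250 ranged from 7.0 to 7.54 in control cells and from 6.76 to 7.34 in receptor cells, and overlapped under both treatments.

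TAPBP was covered by 3 probes, one for each annotated transcript variant. Variant 1 (ILMN_1742450) held steady across cultures, at 8.46, 8.51 and 8.31 in control cells and 8.46, 8.31 and 8.43 in receptor cells under vehicle. Variant 3 (ILMN_1782851) read 5.92, 5.58 and 5.92 in control cells against 5.58, 4.90 and 5.22 in receptor cells under vehicle, a difference of -0.58 ± 0.24 (limma, adjusted p = 0.167). With estradiol it read 6.02, 5.29 and 5.28 against 5.74, 5.08 and 5.03, and the groups overlapped. Variant 2 (ILMN_1773031) ranged from 4.82 to 5.57 over all arrays, close to background, and was not detected on 1 array of control cells under estradiol. PSMB9 was covered by 2 probes to the same variant. ILMN_2376108 read 8.06, 7.76 and 8.0 in control cells and 8.55, 7.79 and 8.19 in receptor cells under vehicle, then 7.73, 8.05 and 8.05 against 8.34, 8.08 and 8.21 with estradiol. ILMN_1798233, nearer background, read 5.19, 4.94 and 5.47 against 5.98, 5.82 and 5.66 under vehicle (0.62 ± 0.23, adjusted p = 0.122), then 5.02, 5.08 and 5.81 against 5.96, 5.65 and 5.19 with estradiol.

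**Figure D1:**
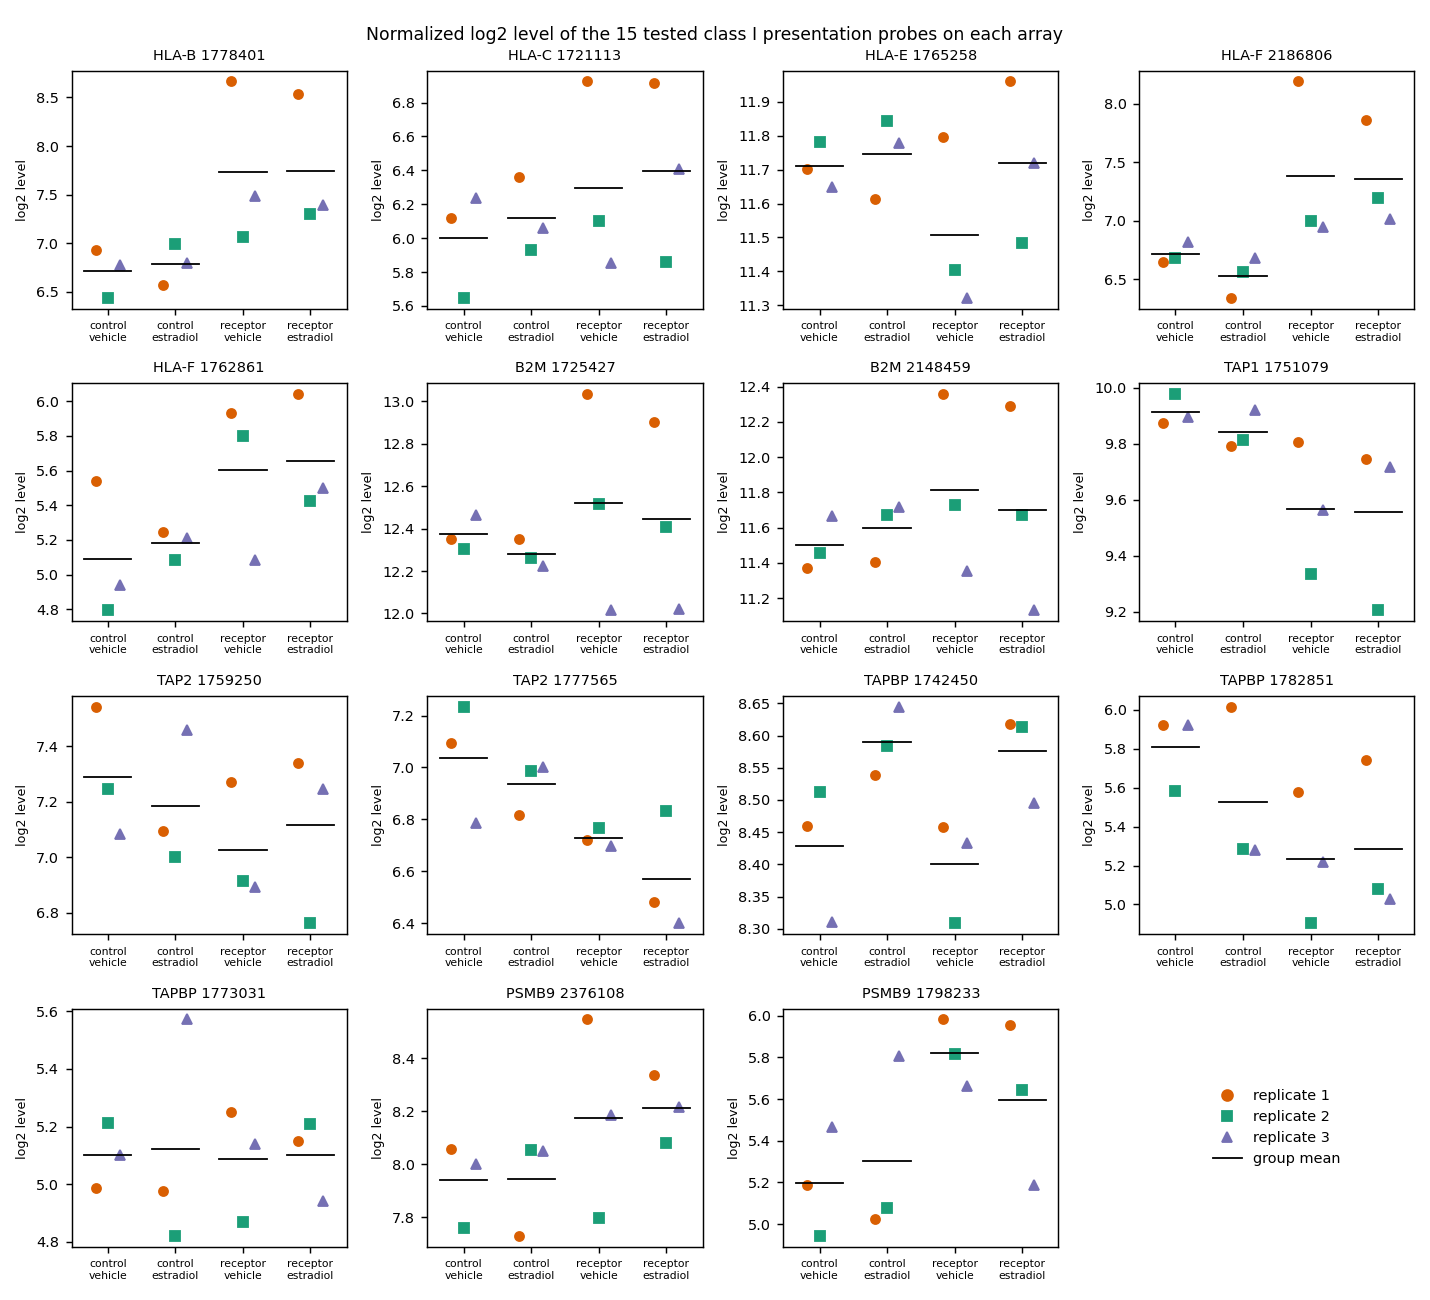
Normalized log2 level (vertical axis, a separate scale per panel) of each of the 15 tested probes on the 12 arrays, by group, with the group mean as a line and the replicate number as colour and shape. Probe numbers are given without their ILMN prefix. Both replicate 1 arrays of receptor cells lie above the other 4 receptor arrays for 12 of the 15 probes, as they do for 16.7% of all probes.

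Across the 15 probes, 0 were called between receptor and control cells under vehicle (limma, adjusted p under 0.05), where 7.34% of all tested probes were called, 3.26% higher and 4.08% lower. Unadjusted p-values under 0.05 were found for 5 of the 15, and for 23.8% of all tested probes. Arrays of the 2 groups did not overlap for 6 probes, 3 higher in receptor cells (HLA-B, HLA-F ILMN_2186806 and PSMB9 ILMN_1798233) and 3 lower (TAP1, TAP2 ILMN_1777565 and TAPBP ILMN_1782851), beside 28.3% of all tested probes, 13% higher and 15.3% lower. The median log2 difference of the member probes was 0.15, beside -0.01 over all probes. Under estradiol 0 of 15 were called again (6.19% of all probes, 2.72% higher and 3.47% lower), with 3 at an unadjusted p under 0.05, and the arrays did not overlap for 4 higher and 1 lower probe (25.8% of all probes, 11.8% higher and 14.1% lower).

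With both arrays of culture 1 left out, the HLA-B difference was 0.56 in each treatment (limma, adjusted p = 0.0717 and 0.0781). HLA-C was -0.02 and 0.01, and B2M ILMN_1725427 was -0.11 and -0.06. Without them TAPBP ILMN_1782851 was called lower under vehicle (-0.72, adjusted p = 0.0489), and HLA-F ILMN_2186806 was called higher under estradiol (0.58, adjusted p = 0.0156) while its vehicle difference was 0.26 (adjusted p = 0.234). Without culture 3, HLA-F ILMN_1762861 was called higher under vehicle (adjusted p = 0.0397) and HLA-F ILMN_2186806 under estradiol (1.00, adjusted p = 0.0452).

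**Figure D2:**
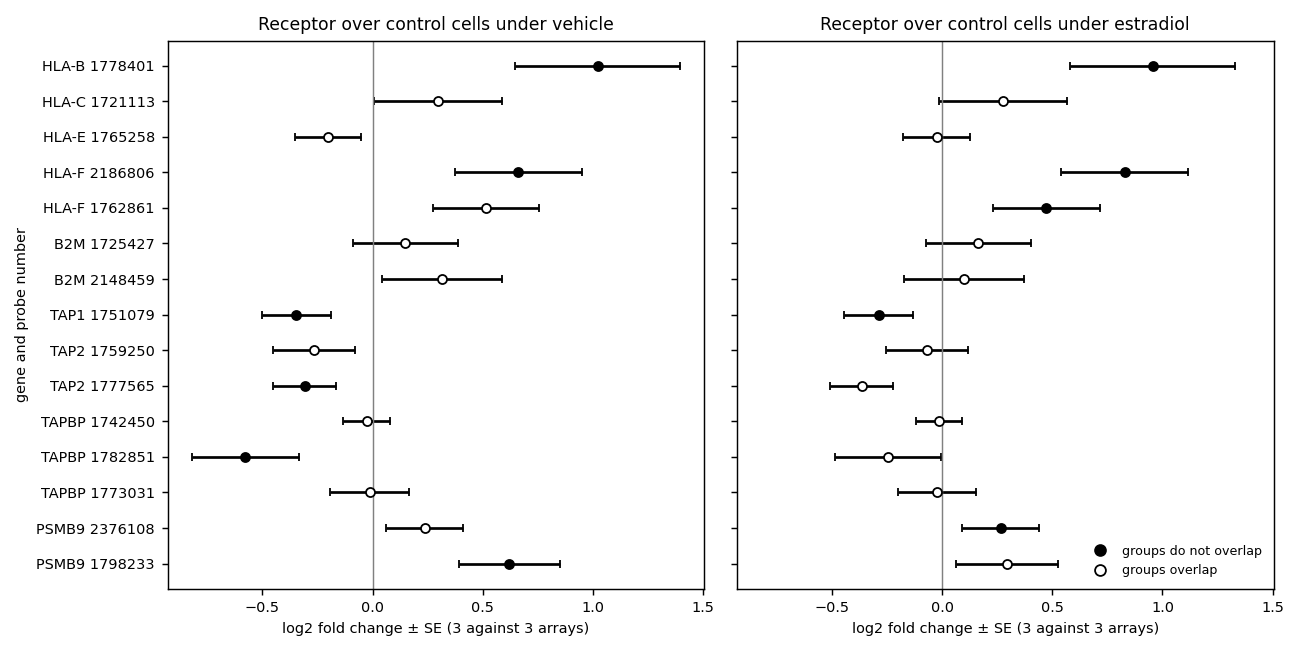
Log2 difference between receptor and control cells with its standard error for each of the 15 tested probes, under vehicle (left) and under estradiol (right), 3 arrays per group. Filled points mark probes whose groups do not overlap, which were 6 under vehicle and 5 under estradiol, and 0 of the 30 differences passed the threshold.

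With estradiol, 0 of the 15 member probes were called in receptor cells and 0 in control cells (limma, each adjusted p at or above 0.9998). Over all tested probes 0.0605% were called in receptor cells and 0% in control cells, and 0 member probes reached an unadjusted p under 0.05 in either. With the replicate number as a block within each line, the smallest adjusted p among members was 0.665 (HLA-E in receptor cells, 0.21 ± 0.15 without the block). The difference between the lines in their response was called for 0 members and 0.0279% of all probes, with 0 members at an unadjusted p under 0.05. Single-culture differences between the estradiol and the vehicle array ran from -0.64 to 0.55 in control cells and from -0.47 to 0.55 in receptor cells. HLA-B differed by -0.13, 0.23 and -0.09 in receptor cultures 1, 2 and 3.

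The probe for TAPBP variant 1 had the most even pattern. It was 8.54, 8.58 and 8.64 in control cells and 8.62, 8.61 and 8.50 in receptor cells with estradiol, above all vehicle arrays of the same line in both, where 11.1% (5.39% higher and 5.73% lower) and 5.49% (2.93% higher and 2.56% lower) of all probes did not overlap. The differences of 0.16 ± 0.11 and 0.18 ± 0.11 were small and not called (limma, adjusted p at or above 0.9998). HLA-E was higher with estradiol in 3 of 3 receptor cultures, by 0.08 to 0.40, and PSMB9 ILMN_1798233 lower in 3 of 3, by -0.47 to -0.03. In control cells HLA-F ILMN_2186806 was lower in 3 of 3, by -0.31 to -0.11, and B2M ILMN_2148459, higher in 3 of 3 control pairs, was lower in 3 of 3 receptor pairs. None of these passed the threshold, and in control cells the replicate numbers did not pair the arrays. In receptor cells 2 member probes were higher and 2 lower in 3 of 3 cultures, beside 13.1% and 14.2% of all probes, and in control cells 2 were higher and 1 lower, beside 14% and 14.3%.

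**Figure D3:**
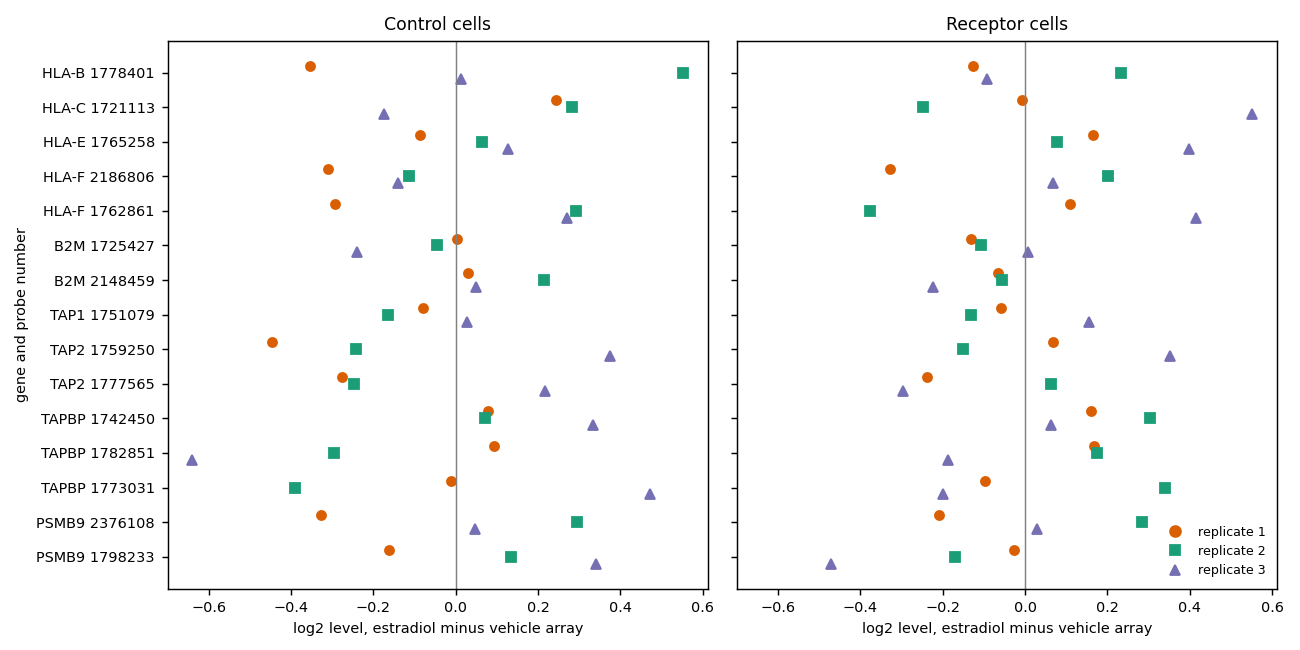
Log2 level of the estradiol array minus that of the vehicle array with the same replicate number, for each of the 15 tested probes, in control cells (left) and receptor cells (right). Points of 1 probe mostly fall on both sides of 0, and they run from -0.64 to 0.55 in control cells and from -0.47 to 0.55 in receptor cells.

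The larger differences lay between receptor cultures. The F test over cultures 1, 2 and 3, in a model with a mean for each culture and an estradiol effect for each line, called 7 of the 15 member probes, from 6 genes, where 22.6% of all tested probes were called. These were HLA-B (limma, adjusted p = 0.00301), HLA-C (0.0148), HLA-F ILMN_2186806 (0.00265), B2M (0.00232 and 0.00121), TAP1 (0.0310) and TAPBP ILMN_1782851 (0.0420). The same test over the replicate numbers of control cells called 0 members and 0% of all probes, with 2 members and 6.49% of all probes at an unadjusted p under 0.05. The p-values rest on the spread between the 2 arrays of each culture, and whether a culture number is a separate clone is not stated. In receptor cells the range over culture means exceeded the largest estradiol difference within a culture for 12 of the 15 probes. That range had a median of 0.54 log2 units over the members, against 0.22 in control cells, beside 0.33 and 0.17 over all probes.

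Culture 1 held the higher level in nearly all of these differences. It was higher than culture 2 on 7 called probes and lower on 0 (9.46% of all probes were called, 4.96% higher and 4.5% lower). Compared with culture 3 it was higher on 8 and lower on 0, where 25.5% of all probes were called, 13.3% higher and 12.2% lower, and its estimate was above 0 for 15 of 15. Between cultures 2 and 3, 0 members were called, beside 4.69% of all probes (3.7% higher and 0.996% lower), with 3 at an unadjusted p under 0.05. Both arrays of culture 1 lay above the other 4 receptor arrays for 12 of the 15 probes, as they did for 16.7% of all probes. The exceptions were TAP2 ILMN_1777565 and the TAPBP probes ILMN_1742450 and ILMN_1773031. These comparisons share the culture 1 arrays.

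The heavy chains HLA-B, HLA-F (ILMN_2186806) and HLA-C and the light chain B2M were each called in both comparisons with culture 1. HLA-B in culture 1 exceeded culture 2 by 1.42 ± 0.19 and culture 3 by 1.17 ± 0.19 (limma, adjusted p = 0.00323 and 0.00350). HLA-F ILMN_2186806 exceeded them by 0.93 ± 0.14 and 1.04 ± 0.14 (adjusted p = 0.00537 and 0.00149), and HLA-C by 0.94 ± 0.19 and 0.79 ± 0.19 (0.0168 and 0.0163). HLA-E differed less, by 0.43 ± 0.12 and 0.36 ± 0.12, and was not called (0.0571 and 0.0599). The light chain B2M was highest in culture 1 and lowest in culture 3, which differed by 0.95 ± 0.11 and 1.08 ± 0.11 on its 2 probes (adjusted p = 0.000887 and 0.000483). Culture 2 exceeded culture 3 by 0.44 and 0.46 on these probes, without passing the threshold. TAP1 was higher in culture 1 than in culture 2 (0.51 ± 0.12, adjusted p = 0.0293) and was not called against culture 3 (0.13 ± 0.12, adjusted p = 0.440). TAPBP ILMN_1782851, near background, was called against both (0.67 ± 0.17 and 0.54 ± 0.17, limma, adjusted p = 0.0429 and 0.0492). These 2 calls were lost in 9 and 11 of 17 alternatives. HLA-F ILMN_1762861 was called only against culture 3 (0.70 ± 0.20, adjusted p = 0.0325). PSMB9 ILMN_1798233 was called only against culture 3 (0.54 ± 0.15, adjusted p = 0.0295), and ILMN_2376108 against neither.

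Set against the 6 control arrays, receptor culture 1 had 8 member probes called higher and 1 lower, where 31.5% of all probes were called, 15.6% higher and 15.9% lower. HLA-B was 3.61-fold higher (1.85 ± 0.16, limma, adjusted p = 6.5e-05) and HLA-F ILMN_2186806 2.64-fold (1.40 ± 0.12, adjusted p = 5.54e-05). HLA-C was higher by 0.86 ± 0.15, HLA-F ILMN_1762861 by 0.85 ± 0.16, B2M by 0.64 ± 0.09 and 0.78 ± 0.09, and PSMB9 by 0.50 ± 0.14 and 0.72 ± 0.12. The called decrease was TAP2 ILMN_1777565 (-0.38 ± 0.12, adjusted p = 0.0414). TAP1 (-0.10 ± 0.10), TAP2 ILMN_1759250 (0.07 ± 0.16) and the TAPBP probes (-0.01 to 0.09) were not called. Both culture 1 arrays lay above all 6 control arrays for 8 probes (19.6% of all probes) and below them for 1 (22.6%). The called increases were in HLA-B, HLA-C, HLA-F, B2M and PSMB9. HLA-E was not called (0.15 ± 0.10, adjusted p = 0.289), and 0 of the 6 transporter and tapasin probes was called higher.

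Culture 2 had 2 probes called higher, HLA-F ILMN_2186806 (0.47 ± 0.12) and PSMB9 ILMN_1798233 (0.48 ± 0.12), where 28.1% of all probes were called, 14.1% higher and 14% lower. It had 2 called lower, TAP1 (-0.61 ± 0.10, limma, adjusted p = 0.00193) and TAPBP ILMN_1782851 (-0.68 ± 0.14, adjusted p = 0.00718). Its arrays lay above all control arrays for 2 probes, HLA-B and HLA-F ILMN_2186806 (18.9% of all probes), and below them for 4 (20.8%). Culture 3 had 1 called higher, HLA-B (0.68 ± 0.16, adjusted p = 0.0182, 7.94% of all probes), and 3 called lower. Those were B2M ILMN_2148459 (-0.31 ± 0.09, adjusted p = 0.0495), TAP2 ILMN_1777565 (-0.44 ± 0.12) and TAPBP ILMN_1782851 (-0.55 ± 0.14), where 9.05% of all probes were called lower and 17% in all. Its arrays lay above all control arrays for 3 probes (15.3% of all probes) and below them for 5 (16%). The second B2M probe had the same size in culture 3 (-0.31 ± 0.09) and fell just outside the threshold (adjusted p = 0.0507). All 3 comparisons use the same control arrays.

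**Figure D4:**
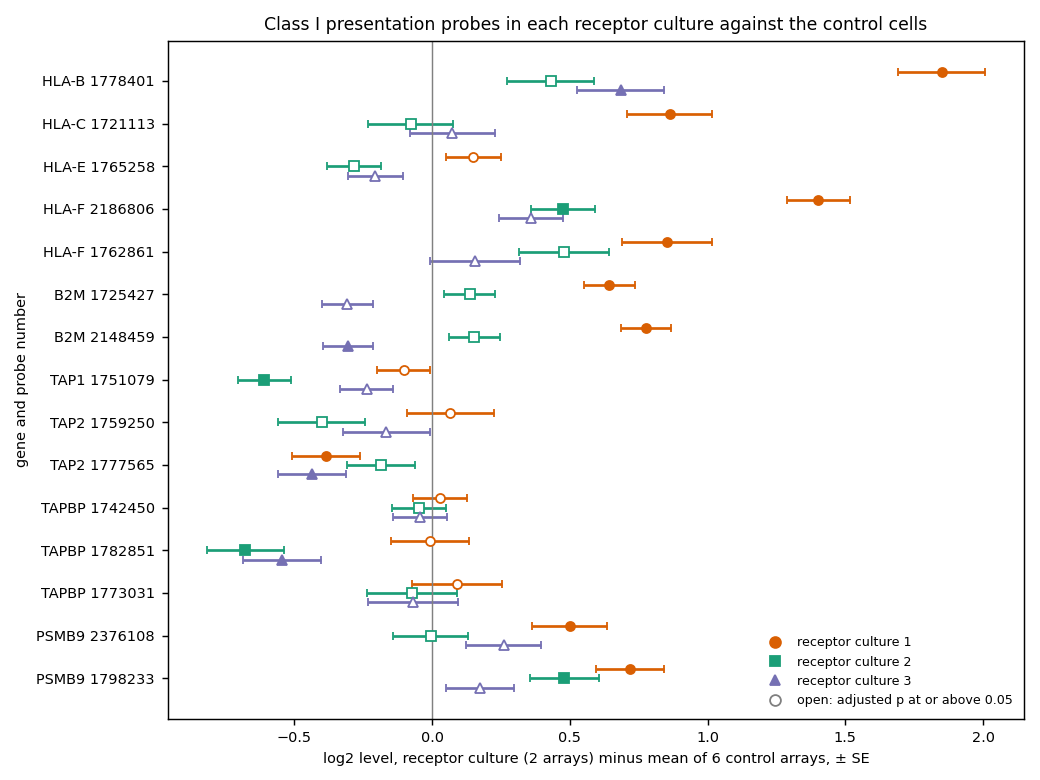
Log2 level of each receptor culture (2 arrays) minus the mean of the 6 control arrays, with its standard error, for the 15 tested probes, with filled symbols for adjusted p under 0.05. Culture 1 reaches 1.85 for HLA-B and 1.40 for HLA-F ILMN_2186806, and TAP1 and TAPBP ILMN_1782851 lie lowest in culture 2, at -0.61 and -0.68.

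Other class I genes on the array, listed as relatives of the members, gave 6 of 9 tested genes called between receptor cultures, beside 22.6% of all probes. The pseudogene HLA-H was higher than control in culture 1 (1.38 ± 0.10) and culture 2 (0.44 ± 0.10). HLA-G, a heavy chain known from the placenta, was below the level where detection starts on the control and culture 3 arrays, at 4.39 to 4.66, and read 5.92 and 5.95 in culture 1 and 5.32 and 5.17 in culture 2. The more distant relatives MICB (-0.38 ± 0.10) and MR1 (-0.48 ± 0.09) were called lower in culture 1. Of these relatives 0 of 9 were called between receptor and control cells under vehicle, beside 7.34% of all probes.

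Every called gene among those that supply, trim and load peptides was lower under vehicle, where 4.08% of all probes were called lower. The calls in culture 1 went in both directions. Under vehicle, 1 of 9 tested peptide supply genes was called, PSME3, a subunit of a nuclear proteasome activator (-0.46 ± 0.11, limma, adjusted p = 0.0271), where 7.34% of all probes were called. The immunoproteasome subunit PSMB8 (0.23 ± 0.12) and PSMB10 (-0.06 ± 0.15), their constitutive counterparts PSMB5 (-0.04 ± 0.16), PSMB6 (0.17 ± 0.11) and PSMB7 (-0.09 ± 0.12), and the activator subunits PSME1 (0.11 ± 0.11) and PSME2 (0.26 ± 0.11) were not called. Of 8 tested trimming and loading genes 2 were called, both lower, the tapasin relative TAPBPL (-0.45 ± 0.11, adjusted p = 0.0281) and the aminopeptidase LNPEP (-0.48 ± 0.12, adjusted p = 0.0284). ERAP1 (-0.29 ± 0.14), which trims peptides in the endoplasmic reticulum, and the chaperones CALR (-0.27 ± 0.12) and CANX (-0.18 ± 0.11) were not called, and the PDIA3 probe was detected on 0 arrays. Against control, culture 1 had 1 supply gene called higher, PSMB8 (0.42 ± 0.09, adjusted p = 0.00705), and 2 lower, PSME3 (-0.53 ± 0.09) and PSMB5 (-0.28 ± 0.09). It had 1 trimming and loading gene higher, ERAP2 (0.35 ± 0.09, adjusted p = 0.0195), and 3 lower, LNPEP (-0.60 ± 0.09), CALR (-0.39 ± 0.09) and TAPBPL (-0.35 ± 0.09). Over all probes, 15.6% were called higher and 15.9% lower in culture 1.

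The regulators of class I genes were called lower or not at all against control cells. Under vehicle 2 of 17 were lower, the interferon gamma receptor subunit IFNGR1 (-0.62 ± 0.14, limma, adjusted p = 0.0177) and STAT2 (-0.81 ± 0.20, adjusted p = 0.0321), and 0 higher, where 4.08% of all probes were called lower. IRF1 (-0.05 ± 0.16) and NLRC5 (-0.08 ± 0.15) were not called. By culture, 0 regulators were called higher and 6, 8 and 4 of 17 lower in cultures 1, 2 and 3, where 15.9%, 14% and 9.05% of all probes were called lower. IRF9, the DNA-binding partner of STAT2 in the type I interferon complex, was lower in culture 2 (-0.72 ± 0.10) and culture 3 (-0.92 ± 0.10). Between receptor cultures 3 of 17 regulators were called, beside 22.6% of all probes. STAT2 and IRF9 were among them, each higher in culture 1 than in cultures 2 and 3. Culture 1 was called higher than culture 2 for 4 regulators and lower for 0 (4.96% and 4.5% of all probes). Against culture 3 it was called higher for 4 and lower for 1 (13.3% and 12.2% of all probes).

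Interferon-stimulated genes outside antigen presentation also differed between receptor cultures, and most were lower than in control cells in cultures 2 and 3. Of 37 tested, culture 1 was called higher than culture 2 for 23 and lower for 1, where 4.96% and 4.5% of all probes were called. Compared with culture 3 it was called higher for 23 and lower for 1, beside 13.3% and 12.2% of all probes. In both cases OASL was the lower gene. Against control cells, culture 1 had 3 called higher (OAS3, ISG20 and SP100) and 13 lower (15.6% and 15.9% of all probes), with a median of -0.20. Culture 2 had 0 higher and 31 lower (14.1% and 14% of all probes), with a median of -0.90. Culture 3 had 1 higher (SP100) and 30 lower (7.94% and 9.05% of all probes), with a median of -0.82. OAS2, which makes the activator of RNase L, read 10.85 to 11.36 in control cells, 11.38 and 11.21 in culture 1, 9.76 and 9.36 in culture 2 and 9.58 and 9.38 in culture 3. IFITM1, a membrane protein that restricts virus entry, was lower in all 3 (-1.21 ± 0.10, -2.28 ± 0.10 and -2.31 ± 0.10). The medians of the 9 members over the same comparisons, with the brightest probe per gene, were 0.50, -0.05 and -0.04.

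**Figure D5:**
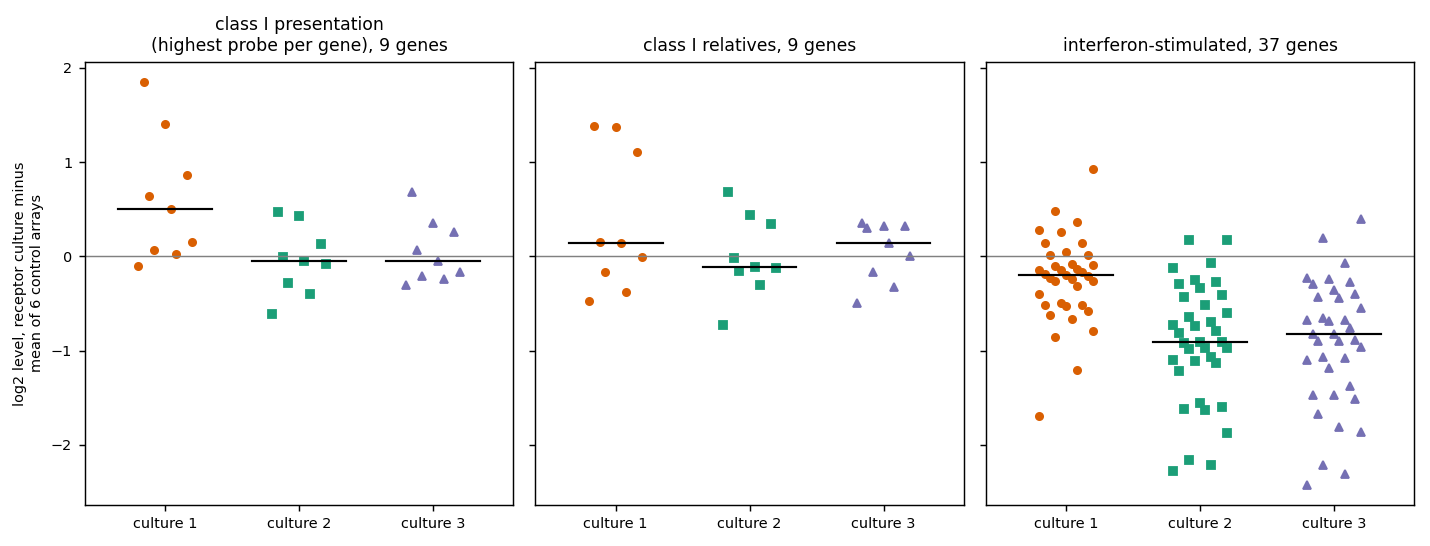
Log2 level of each gene in receptor cultures 1, 2 and 3 minus the mean of the 6 control arrays, for the 9 members (brightest probe per gene), 9 tested class I relatives and 37 interferon-stimulated genes, with the median as a line. The medians for the members are 0.50, -0.05 and -0.04, and those for the interferon-stimulated genes are -0.20, -0.90 and -0.82.

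Class II genes, which present peptides from outside the cell, were mostly not detected. Of 12 on the array 4 were tested, and CIITA, the class II master regulator, was detected on 0 arrays. HLA-DPA1 was higher in culture 1 than in control cells (1.28 ± 0.17, limma, adjusted p = 0.000618), and HLA-DRA was called higher there (0.44 ± 0.13). These were 2 of the 4 tested, with 0 called lower, where 15.6% of all probes were called higher and 15.9% lower. Compared with culture 3, culture 1 was called higher for HLA-DPA1 (0.98) and lower for HLA-DMA (-0.68), beside 13.3% and 12.2% of all probes. HLA-DRA was also called higher in receptor cells under vehicle (0.62 ± 0.17, limma, adjusted p = 0.0465), beside 3.26% of all probes. Under estradiol the HLA-DRA difference was -0.11 ± 0.17 and 0 class II genes were called, beside 6.19% of all probes. The estradiol array of culture 1 read 5.84 for HLA-DRA, within the control range of 5.21 to 6.01.

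Cell type markers moved with the receptor cultures as well. Of 9 tested endothelial markers 5 were called between receptor cultures, where 22.6% of all probes were called. The summed linear level of the endothelial markers was 17428 to 17550 in culture 1, 11682 to 12550 in culture 2, 12580 to 13924 in culture 3 and 14419 to 17387 in control cells. Of 6 tested epithelial markers 4 were called, with sums of 2949 to 2980, 5281 to 5593 and 5302 to 5544 in cultures 1, 2 and 3 and 2477 to 2931 in control cells. VWF read 11.14 and 11.04 in culture 1 against 8.68 to 9.05 in cultures 2 and 3, and KRT7 read 10.31 and 10.21 against 11.57 to 11.66. KRT19 had the opposite order with estradiol only. Culture 1 read 7.03 with estradiol and 4.88 under vehicle, and the second value lay within the 4.37 to 5.87 of cultures 2 and 3. Of the 6 epithelial markers, 1 was called higher and 2 lower in culture 1 than in culture 3 (13.3% and 12.2% of all probes). Against culture 2, 0 were called higher and 2 lower (4.96% and 4.5% of all probes). The part of the cell type markers in the class I differences was not tested. Leukocyte marker sums were 450 to 501, 606 to 653 and 649 to 657 in cultures 1, 2 and 3 and 573 to 699 in control cells. They run over 9 genes, of which 4 were detected on 0 arrays and only LYZ (8.03 to 8.98) on all 12. The leukocyte sums therefore do not measure a leukocyte content. In bulk RNA, fewer cells of a type and less RNA per cell cannot be told apart.

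The stretch of chromosome 6 from HLA-F to TAPBP holds 8 of the 9 members among many other genes. Of 83 such genes tested, members left out, 14 were called between receptor cultures, or 16.9%, beside 23.3% of all genes. Culture 1 was higher than culture 3 for 7 of them and lower for 9, with a median difference of 0.01.

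The member profile, the mean of the 9 members' standardised levels, was 1.25 and 1.28 on the 2 arrays of culture 1 and between -0.78 and 0.20 on the other 10. The genes most like it over the 12 arrays by Pearson correlation were AXUD1 (now CSRNP1, r = 0.96), LOC728368 (0.95), DMRTA2 (0.93), GLT8D2 (0.93) and NRD1 (now NRDC, 0.93). With 2 arrays far above the other 10, these correlations mainly rank genes that are high in culture 1. GLT8D2, a predicted glycosyltransferase gene, read 7.27 and 7.16 in culture 1 and 4.80 to 5.75 elsewhere.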

How the data were processed

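RNA of 12 cell line samples was hybridised to Illumina BeadChips. The deposited non-normalized table held a bead summary intensity and a detection p-value per probe and array. A table of normalized intensity deposited by the authors served as an alternative, and the submitters' processing notes name lumi without a version. The deposited series value table held the same values (largest difference 0). Of 47322 probes, 1 lacked values and was left out.

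With neqc (limma 3.58.1, R 4.3.3, offset 16) the deposited intensities were background corrected by way of the detection p-values, quantile normalised and log2 transformed. Probes with a detection p-value under 0.05 on at least 3 arrays were tested. The group model took the 12 arrays together, with a mean for each of the 4 groups (8 residual and 5.02 prior degrees of freedom). A second model had a mean for each line and replicate number and an estradiol effect for each line (4 residual and 5.15 prior degrees of freedom), and its F test compared the cultures of a line. Two-sided moderated tests were adjusted by Benjamini-Hochberg over all 21476 tested probes, and a probe was called at an adjusted p under 0.05. Levels of different probes were not compared. The number of arrays limits the precision. P-values measure the spread between these samples, which may be technical.

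The members and gene lists, and the tests, were chosen with earlier results of these data known. Contrasts between single cultures were added after the group fits. Every member probe was named, with a fixed set of pathway genes under vehicle (some listed genes are not reported here), up to 4 called genes per list and comparison with the smallest adjusted p as candidates, from which the text names those bearing on the members, and the 5 genes most correlated with the members' mean profile. ISG20, SP100 and MICB complete small counts and were chosen after their values were seen. Replicate numbers paired the vehicle and estradiol arrays of receptor cells (every correlation over 0.1), but not those of control cells, nor arrays across lines (-0.05 to 0.03). On simulated arrays the group model called 85 of 100 probes changed by 1 log2 unit and 97 of 100 changed by 2, with 7 false calls, and the culture F test 48 and 94, with 2. The simulated arrays were drawn independently, without the shared deviation of receptor arrays of 1 number, and took their spread from the group model for both tests. These counts therefore do not measure the power or the false calls in the data themselves. Alternatives were the authors' values, no background correction, other detection filters, 1 probe per gene, a variance trend, replicate blocks and leaving out arrays. Figures were drawn with matplotlib 3.10.9 (Python 3.11.15). Promoters came from RefSeq (GRCh38.p14).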

Additional observations from a re-analysis of the deposited data

Results flagged for a closer look

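The estradiol response of B2M ILMN_2148459 went one way in every control pair and the other way in every receptor pair. Control pairs are matched by replicate number only, which did not pair the control arrays. Estradiol minus vehicle was 0.03 to 0.21 in the 3 control pairs and -0.22 to -0.06 in the 3 receptor pairs. The difference between the lines was -0.2136 ± 0.39 on the log2 scale and did not pass the test (limma interaction term, adjusted p = 0.9997). With the replicate number as a block within each line it was -0.21 ± 0.13 and again did not pass (limma interaction term, adjusted p = 0.787). The other B2M probe, ILMN_1725427, gave a difference of 0.02 ± 0.34.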

How the results depend on the processing

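For the 39 probe results called in the culture comparisons, alternatives gave 697 repeats, of which 580 kept their call, 117 kept their direction and lost the call, and 0 changed sign. The F-test calls for HLA-B, HLA-F ILMN_2186806 and both B2M probes held in every alternative (highest adjusted p 0.0457), whereas HLA-C lost its call without either array of culture 1, TAP1 in 8 of 20 alternatives and TAPBP ILMN_1782851 in 12 of 19. Against control, the decrease of TAP2 ILMN_1777565 lost its call in 7 of 17 alternatives in culture 1 and 9 of 17 in culture 3. In culture 3, B2M ILMN_2148459 lost its call in 12 of 17 and TAPBP ILMN_1782851 in 5 of 17. In culture 2, TAPBP ILMN_1782851 lost its call in 2 of 17 and TAP1 in 0 of 18. The comparison of receptor with control cells under vehicle gave 1 call in place of 0 with the replicate number as a block across all groups (TAPBP ILMN_1782851), although numbers do not pair the lines. With the block within each line, estradiol comparisons had 0 calls as without it. The block changed no other call. Between cultures 1 and 3, calls went from 8 to 5 with no detection filter and to 5 with 1 probe per gene, which tests 9. Between cultures 2 and 3 they went from 0 to 3 with the authors' values, 3 with no background correction, 3 with a variance trend and 2 on probes detected on all arrays. Culture 1 against control went from 9 to 5 with 1 probe per gene. Culture 2 against control went from 4 to 7 with the authors' values, 7 with no background correction and 8 with a trend, and culture 3 from 4 to 8, 8 and 8, and to 2 with no filter and 2 with 1 probe per gene. Apart from the fewer probes tested with 1 per gene, the cause was not tested. Leaving out arrays gave 0 to 1 calls under vehicle and 0 to 1 under estradiol, 4 to 7 by the F test over receptor cultures (4 without either culture 1 array), 0 to 7 for culture 1 against 2 (0 without its vehicle array), 4 to 8 for 1 against 3, 5 to 9, 2 to 6 and 0 to 3 for cultures 1, 2 and 3 against control, and 0 elsewhere. A lone array left in a culture was assumed to vary like the others. The BeadChip as a block was not run, since the files name no chip. The probes HLA-F ILMN_1762861, TAPBP ILMN_1773031 and ILMN_1782851 and PSMB9 ILMN_1798233 lie near background, which limits their precision.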
